A study of Mus musculus with 15 samples.

Results

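Toll-like receptors are the membrane receptors with which myeloid cells recognise microbial molecules, and 10 genes of this system were followed here across MLL-ENL-transformed mouse cells with and without C/EBPα and C/EBPβ. The 10 genes, of 53379 in the table, were the receptors Tlr1, Tlr2, Tlr4, Tlr6, Tlr7, Tlr8, Tlr9 and Tlr13, the co-receptor Ly96 and the adaptor Myd88, chosen by symbol as a gene family, with earlier results of these data known. The receptors of the cell surface bind microbial lipids: TLR2 pairs with TLR1 or TLR6 for lipoproteins, and TLR4 binds lipopolysaccharide together with MD-2, the product of Ly96. TLR7, TLR8, TLR9 and TLR13 sit in endosomes, where they bind nucleic acids. All of the receptors listed signal through the adaptor MyD88, which recruits IRAK kinases and leads to NF-κB and MAP kinase signalling, and such genes are part of the normal programme of monocytes, macrophages and granulocytes.

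RNA-seq was available for 5 groups of 3 libraries, which were named by clone (C1 or C2) and genotype. WTFL cells were fetal liver cells of Cebpa fl/fl Cebpb fl/fl mice that carried intact floxed alleles (wild-type in the labels) and were transformed with a retrovirus encoding the MLL-ENL oncogene, dKO cells (Cebpa KO, Cebpb KO) had lost both genes through Cre and carried GFP, and LAPS cells, of clone C1 only, were dKO cells with GFP and a retrovirus for LAP*, which is rat C/EBPβ in its long form. All groups thus shared MLL-ENL, and all were kept in IMDM with 10% FCS and 10 ng/ml IL-3, with no Toll-like receptor ligand named. Each group was 1 cell line from which RNA was isolated 3 times at different time points, so that all p-values measure the spread between isolations of 1 line. The C1 and C2 lines came from different mice, partly deleted clones were pooled before the last round of Cre, and no WTFL cells carried GFP, so loss of the 2 genes, GFP and the choice of a clone cannot be told apart within 1 clone.

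Values are normalized reads, that is, the read count of a gene divided by the size factor of its library, with 9212237 to 13613500 reads on genes per library (median 11885279). Cebpa was listed at 0 in all 6 dKO libraries against 903 to 2267 in the WTFL libraries, and Cebpb was also listed at 0 in all 6. LAPS libraries had 2538, 2564 and 4216 normalized reads at Cebpb and at most 1 read at Cebpa. Of the markers of the labelled cells, Kit, Itgam, Fcgr3, Fcgr2b and Ptprc were present in every library, and Kit, Fcgr3 and Fcgr2b were called higher in dKO cells of both clones, against 5.69% of all tested genes called higher in both, with Kit 2.29-fold higher in C1 (adjusted p = 7.98e-07, limma) and 4.46-fold higher in C2 (adjusted p = 1.13e-09, limma). What part this shift had in the results was not tested. Pax5, which defines B cells, and Cd3e, which defines T cells, had no more than 1 read in any library. The 3 T cell markers summed to at most 11.5 normalized reads in a library, a value of C2 dKO cells. Of these markers, Cd3g had 3 to 11 reads in the C2 dKO libraries and none in the WTFL libraries of either clone.

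The upstream bases of some of these genes are shown first because C/EBP proteins, the factors removed here, bind DNA. RefSeq promoters of build GRCm38.p6 were given for 7 of the 10 genes (9 start sites), with no entry for Tlr4, Tlr7 and Ly96, which were therefore not searched, and the 250 bases before each start were searched on both strands for the C/EBP letters TTGCNNAA, the PU.1 letters GAGGAAGT and the κB letters GGNNTTTCC. Of 32851 promoters of the same length, 9.56% held the C/EBP letters, 2.44% the PU.1 letters and 4.93% the κB letters. Among the 9 start sites, the C/EBP letters were found at 1 of Tlr8 (29 bases before the start) and 1 of Tlr6 (89 bases before an internal start, in an intron), the PU.1 letters at 1 of Tlr1 (23 bases before the start), and the κB letters at none. A match describes letters and is no evidence of binding. The other Tlr6 start held no match. Tlr8 was called lower in both clones, on few reads in C2, Tlr6 was called in neither, and Tlr9, with no match, was almost absent from clone C2. Whether the matches had a part in these levels was not tested. The 3 stretches that overlap no annotated exon are printed 5′ to 3′ on the gene's strand with matched letters in capitals.
Tlr8, chrX:167264330-167264579, minus strand: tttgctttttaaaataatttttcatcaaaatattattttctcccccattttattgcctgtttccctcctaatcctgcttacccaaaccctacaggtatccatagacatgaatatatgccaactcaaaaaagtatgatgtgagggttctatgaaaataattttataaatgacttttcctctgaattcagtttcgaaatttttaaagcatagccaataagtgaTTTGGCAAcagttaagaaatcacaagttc
Tlr6, chr5:64959167-64959416, minus strand: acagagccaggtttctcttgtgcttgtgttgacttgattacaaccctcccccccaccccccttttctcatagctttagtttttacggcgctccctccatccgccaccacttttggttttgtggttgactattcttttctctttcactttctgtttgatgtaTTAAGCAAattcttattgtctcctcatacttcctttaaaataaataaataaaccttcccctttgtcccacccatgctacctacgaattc
Tlr9, chr9:106222348-106222597, plus strand: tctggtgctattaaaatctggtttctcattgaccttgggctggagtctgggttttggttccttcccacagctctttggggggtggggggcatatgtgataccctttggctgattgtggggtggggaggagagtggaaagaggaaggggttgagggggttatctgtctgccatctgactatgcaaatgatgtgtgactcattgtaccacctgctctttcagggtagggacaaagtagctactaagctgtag

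The question of the main comparison was which of the 10 genes changed when C/EBPα and C/EBPβ were lost. In clone C1, 6 of the 10 genes fell in dKO cells (Tlr2, Tlr7, Tlr8, Tlr13, Ly96 and Myd88) and none rose, against 19.9% of all 12673 tested genes called lower and 17.1% called higher. No member was higher in clone C1 at an unadjusted p under 0.05 or with edgeR or DESeq2 either. Their median log2 fold change was -0.64, and that of all tested genes was -0.02. In clone C2, 3 genes fell (Tlr4, Tlr7 and Tlr8) and 1 rose (Tlr9), against 20.1% of tested genes called lower and 17.4% called higher, and the medians were -0.30 and -0.03. In C2, however, 1 library held 10 or more normalized reads of Tlr8 and 0 held as many of Tlr9, so that both entered the test through their level in clone C1. Of the 8 genes that passed the filter within clone C2, 2 fell (Tlr4 and Tlr7) and 0 rose, counts near the shares of all tested genes. Of these 8 genes, Tlr7 alone was called lower in both clones, against 8.36% of all tested genes called lower in both, so the count is near the background. Tlr7 is an endosomal receptor for single-stranded RNA and its breakdown products. The related Tlr8 was also called lower in both clones, but its C2 call has the limit of the filter and of few reads given above. A test was a limma fit of log2(normalized reads + 1) with Benjamini-Hochberg adjustment over all tested genes and a call at an adjusted p under 0.05, and all 10 genes passed the filter on low values in at least 3 of the 15 libraries. Because the samples are bulk, fewer expressing cells and less RNA per cell cannot be told apart.

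**Figure D1:**
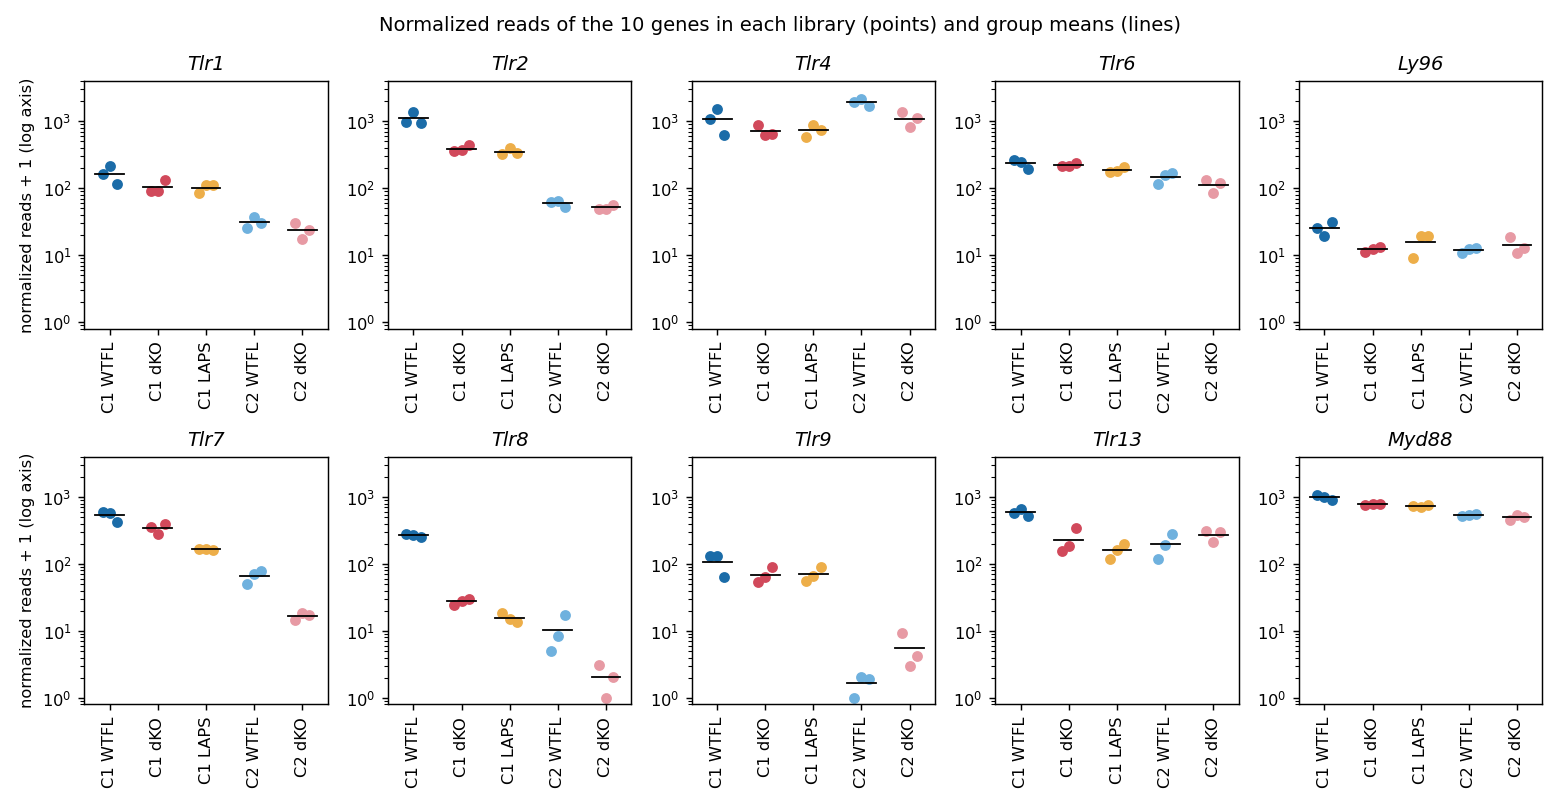
Normalized reads + 1 on a log axis for the 10 genes, with 1 point per library, 3 per group, and a line at the group mean. In clone C1 the Tlr8 points drop from 254 to 279.6 in WTFL cells to 23.8 to 29.1 in dKO cells, and most genes sit lower in both groups of clone C2 than in C1 WTFL cells, with Tlr4 as an exception.

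Tlr2, the partner of TLR1 and TLR6 in sensing lipoproteins (chromosome 3, 83836272 to 83841767, minus strand, mm10), had 977, 1386 and 955 normalized reads in the C1 WTFL libraries and 354, 374 and 438 in the C1 dKO libraries. In clone C2 its values were 61.7, 62.9 and 52.2 in WTFL and 48.1, 48.6 and 55.8 in dKO cells. Every C1 WTFL library thus lay far above every dKO library, while the 2 groups of clone C2 overlapped at a far lower level. Tlr2 was 2.81-fold lower in C1 dKO cells (log2 fold change -1.49, SE 0.15, adjusted p = 1.05e-06, limma), and in clone C2 the difference was not called (log2 fold change -0.21, SE 0.15, adjusted p = 0.289, limma, 95% interval -0.52 to 0.10).

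Tlr1 (chromosome 5, 64924679 to 64933563, minus strand) had 163, 212 and 114 normalized reads in C1 WTFL and 89.5, 90.2 and 132 in C1 dKO cells. Its values in clone C2 were 24.9, 36.7 and 29.3 in WTFL and 29.3, 16.5 and 22.5 in dKO cells. Groups overlapped in both clones, and neither difference was called (log2 fold change -0.62, SE 0.26, adjusted p = 0.0697, limma in C1; log2 fold change -0.41, SE 0.26, adjusted p = 0.224, limma in C2). The C1 difference was called by edgeR (adjusted p = 0.0413), by DESeq2 (adjusted p = 0.0413), after quantile normalization (adjusted p = 0.0439), and by limma without C1 WTFL replicate 3 (adjusted p = 0.0183) or C1 dKO replicate 3 (adjusted p = 0.0394).

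Tlr6, which lies 18467 bases from Tlr1 (64952031 to 64960097, minus strand), had 264, 246 and 193 normalized reads in C1 WTFL and 212, 213 and 241 in C1 dKO cells. In clone C2 it had 114, 154 and 169 in WTFL and 131, 82.6 and 119 in dKO cells. Both pairs of groups overlapped, with the smallest C1 difference of the 10 genes (log2 fold change -0.07, SE 0.18, adjusted p = 0.81, limma, 95% interval -0.46 to 0.32). The difference in C2 was not called either (log2 fold change -0.40, SE 0.18, adjusted p = 0.1, limma), but was called without C2 WTFL replicate 1 (adjusted p = 0.0291) or C2 dKO replicate 1 (adjusted p = 0.0499). Tlr1 and Tlr6 have 336 windows of 76 bases in common, which are 10.2% of the windows of Tlr1 and 9.14% of those of Tlr6. A single read of such a window matches both genes, and what part such reads had in the counts was not tested. The other 44 of the 45 pairs among the 10 genes had no such window in common.

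Tlr4, the receptor for lipopolysaccharide (chromosome 4, 66827584 to 66930284, plus strand), had 1085, 1504 and 629.7 normalized reads in C1 WTFL and 866, 615 and 656 in C1 dKO cells. Its values in clone C2 were 1918, 2151 and 1706 in WTFL and 1357, 816 and 1128 in dKO cells. The C1 WTFL libraries spread widely and overlapped the dKO libraries, whereas every C2 WTFL library lay above every C2 dKO library. Tlr4 was 1.78-fold lower in C2 dKO cells (log2 fold change -0.83, SE 0.26, adjusted p = 0.0184, limma), a call that was lost without C2 WTFL replicate 2 (adjusted p = 0.07) or C2 dKO replicate 2 (adjusted p = 0.0913). In C1 it was not called (log2 fold change -0.52, SE 0.26, adjusted p = 0.129, limma), and leaving out C1 WTFL replicate 3 gave a call (adjusted p = 0.00569).

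Ly96, which encodes the MD-2 subunit that holds lipopolysaccharide for TLR4 (chromosome 1, 16688051 to 16709611, plus strand), was thinly covered, with 8 to 30 reads in a library. It had 24.1, 18.0 and 30.6 normalized reads in C1 WTFL and 10.2, 11.5 and 12.4 in C1 dKO cells. In clone C2 the values were 9.96, 11.5 and 11.9 in WTFL and 17.8, 9.72 and 11.8 in dKO cells. The C1 groups did not overlap, and the C2 groups did. Ly96 was 2.0-fold lower in C1 dKO cells (log2 fold change -1.002, SE 0.32, adjusted p = 0.0236, limma) and not called in C2 (log2 fold change 0.18, SE 0.32, adjusted p = 0.699, limma). The C1 call was lost without the filter (adjusted p = 0.0713), with DESeq2 (adjusted p = 0.0523), and without C1 WTFL replicate 1 (0.0606) or 3 (0.0872) or C1 dKO replicate 1 (0.0677) or 2 (0.0533), all adjusted p.

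Tlr8 (chromosome X, 167242696 to 167264329, minus strand) changed most among the 10 genes in clone C1. It had 279.6, 266 and 254 normalized reads in C1 WTFL libraries and 23.8, 27.3 and 29.1 in C1 dKO libraries. Clone C2 had few reads of it, 4, 7 and 18 in the WTFL and 2, 0 and 1 in the dKO libraries. The groups did not overlap in either clone, and the C2 dKO libraries were at the floor of 3 reads. Tlr8 was 9.67-fold lower in C1 dKO cells (log2 fold change -3.27, SE 0.42, adjusted p = 1.41e-05, limma). It was also called lower in C2 dKO cells (adjusted p = 0.000474, limma). With 29 WTFL against 3 dKO reads, the ratio in C2 was 9.25 (95% counting interval 2.87 to 47.4, which covers counting error only), and the fitted log2 value there ran from -3.65 to -1.16 between pseudocounts of 0.1 and 5. With only the C2 groups in the fit, Tlr8 did not pass the filter and had no value.

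Tlr7 (chromosome X, 167304929 to 167330558, minus strand), 40599 bases from Tlr8, had 603, 583 and 419 normalized reads in C1 WTFL and 353, 277 and 391 in C1 dKO cells. In clone C2 it had 49.8, 69.2 and 78.8 in WTFL and 13.6, 17.5 and 16.1 in dKO cells. Groups were apart in both clones, narrowly in C1 and by a wide margin in C2. Tlr7 was 1.57-fold lower in C1 dKO cells (log2 fold change -0.65, SE 0.19, adjusted p = 0.0133, limma) and 3.95-fold lower in C2 dKO cells (log2 fold change -1.98, SE 0.19, adjusted p = 8.4e-07, limma). The C1 call was lost without C1 WTFL replicate 1 (adjusted p = 0.0653) or 2 (adjusted p = 0.0525) or C1 dKO replicate 2 (adjusted p = 0.0725).

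Tlr13, the mouse receptor for bacterial ribosomal RNA (chromosome X, 106143204 to 106160493, plus strand), had 569, 671 and 523 normalized reads in C1 WTFL and 154, 186 and 347 in C1 dKO cells. Its values in clone C2 were 119, 189.8 and 283 in WTFL and 305, 211 and 299 in dKO cells. The C1 groups were apart, and the C2 groups overlapped. Tlr13 was 2.71-fold lower in C1 dKO cells (log2 fold change -1.44, SE 0.31, adjusted p = 0.00166, limma) and not called in C2, where the estimate was positive (log2 fold change 0.53, SE 0.31, adjusted p = 0.195, limma).

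Tlr9, the receptor for unmethylated CpG DNA (chromosome 9, 106222598 to 106226883, plus strand), had 128, 132 and 62.2 normalized reads in C1 WTFL and 53.2, 62.9 and 88.3 in C1 dKO cells. In clone C2 it was near the floor, with 0, 1 and 1 reads in the WTFL and 8, 2 and 3 in the dKO libraries. The C1 groups overlapped, and the C2 groups were apart by 1 read. It was not called in C1 (log2 fold change -0.60, SE 0.42, adjusted p = 0.29, limma). In C2 it was called higher in dKO cells (adjusted p = 0.00668, limma) on 13 against 2 reads, a ratio of 6.80 (95% counting interval 1.54 to 62.0). That call was lost with edgeR (adjusted p = 0.0591) and with a pseudocount of 5 (adjusted p = 0.081).

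Myd88, the shared adaptor (chromosome 9, 119335934 to 119341411, minus strand), had 1086, 989 and 889.5 normalized reads in C1 WTFL and 749, 788 and 786 in C1 dKO cells. In clone C2 it had 526, 542 and 559.8 in WTFL and 452, 538 and 502 in dKO cells. Differences were small, with the C1 groups apart and the C2 groups overlapping. Myd88 was 1.27-fold lower in C1 dKO cells (log2 fold change -0.35, SE 0.08, adjusted p = 0.004, limma) and not called in C2 (log2 fold change -0.13, SE 0.08, adjusted p = 0.247, limma, 95% interval -0.31 to 0.05). Of its exonic bases, 11.3% overlap Acaa1a on the other strand, and the strand setting of the counting was not given in the sources used here. Acaa1a itself was not called in C1 (log2 fold change -0.08, SE 0.10, adjusted p = 0.567, limma). It was lower in the C2 dKO libraries (log2 fold change -0.51, adjusted p = 0.000549, limma), in LAPS against WTFL cells (log2 fold change -0.39, adjusted p = 0.00463, limma) and in C2 against C1 WTFL cells (log2 fold change -0.44, adjusted p = 0.00157, limma), and its part in the Myd88 values was not tested.

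**Figure D2:**
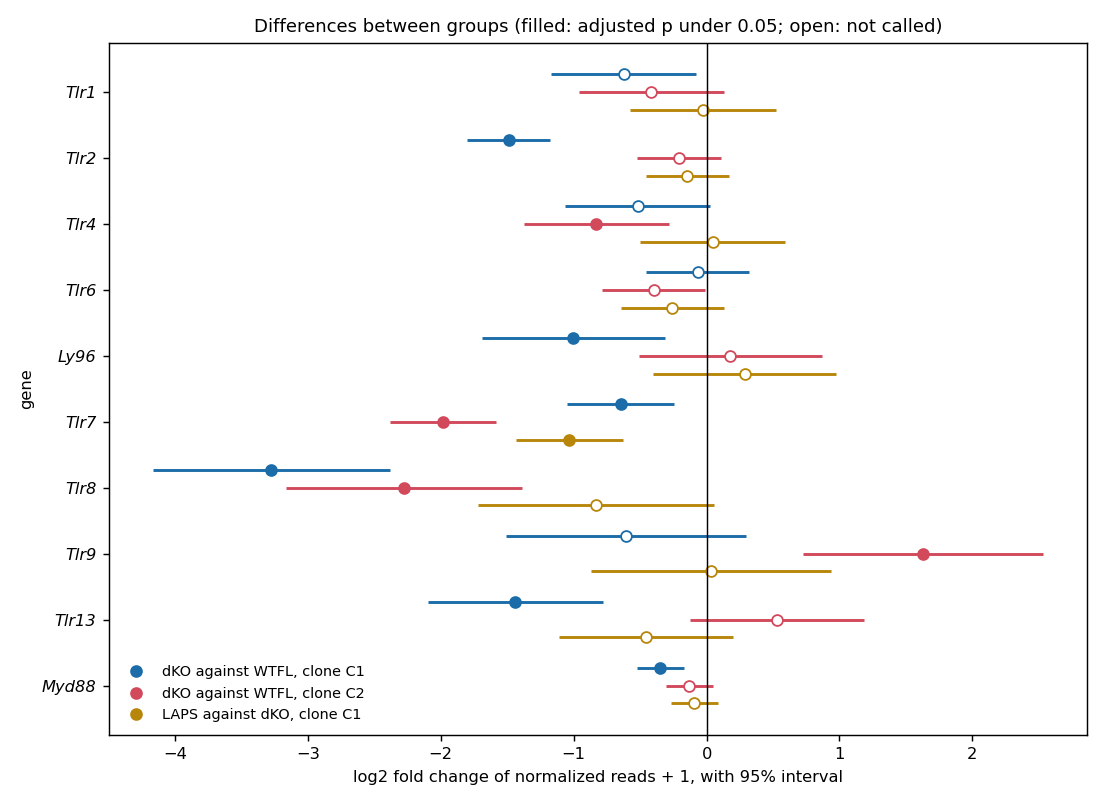
Log2 fold change of normalized reads + 1 (points) with 95% intervals (lines) for each gene in 3 comparisons, filled where the adjusted p of limma was under 0.05 and open where it was not. Tlr7 and Tlr8 are the genes with filled points left of 0 in both clones, with Tlr8 on few reads in C2. Tlr7 alone is filled between LAPS and dKO cells, a comparison that shares its dKO libraries with the first.

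Whether the effect of the deletion differed between the clones was tested as an interaction term. It was called for 4 of the 10 genes, and for 3 of the 8 that passed the filter within clone C2, against 29.4% of all tested genes, so the count is near the background and the values are those of single genes. Tlr2 (log2 fold change 1.28, SE 0.21, adjusted p = 0.000261, limma) and Tlr13 (log2 fold change 1.97, SE 0.44, adjusted p = 0.00289, limma) had the more negative effect in clone C1 and were not called in C2, and Tlr7 (log2 fold change -1.33, SE 0.27, adjusted p = 0.00131, limma) fell further in clone C2. Tlr9 was called as well (log2 fold change 2.23, SE 0.60, adjusted p = 0.0107, limma), but its value rests on the few reads of clone C2 and ran from 1.27 to 3.59 between pseudocounts of 5 and 0.1. The difference was not called for Tlr8 (log2 fold change 0.998, SE 0.59, adjusted p = 0.231, limma), Ly96 (log2 fold change 1.18, SE 0.46, adjusted p = 0.0649, limma) or Myd88 (log2 fold change 0.22, SE 0.12, adjusted p = 0.189, limma). With a pseudocount of 5 the Tlr8 difference was called (adjusted p = 0.000669), while with one of 0.1 its sign turned (log2 fold change -0.33, adjusted p = 0.867), and Ly96 was called after quantile normalization (adjusted p = 0.0231), when only the groups compared were fitted (adjusted p = 0.0433), with a pseudocount of 5 (adjusted p = 0.05 after rounding) and without C1 WTFL replicate 2 (adjusted p = 0.044) or C2 dKO replicate 2 (adjusted p = 0.0478).

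The 2 transformed lines differed in these genes before any deletion. Between WTFL cells of clone C2 and clone C1, 9 of the 10 genes were lower in C2 and 1, Tlr4, was higher, against 21.3% of all tested genes called lower and 19.7% called higher. Tlr8 and Tlr9 are among the 9, though both passed the filter only through clone C1, where they were higher. The median log2 fold change of the 10 genes was -2.01, and that of all tested genes was -0.01. Tlr9 stood furthest apart in the main fit, with 303 reads over the C1 WTFL libraries and 2 over the C2 WTFL libraries (ratio 163, 95% counting interval 44.7 to 1350.6). With a pseudocount of 5, Tlr8 stood further apart (log2 fold change -4.34) than Tlr9 (-4.25). Tlr8 was 29.7-fold lower (log2 fold change -4.89, SE 0.42, adjusted p = 1.29e-07, limma), Tlr2 was 18.2-fold lower (log2 fold change -4.19, SE 0.15, adjusted p = 5.87e-12, limma) and Tlr7 was 8.04-fold lower (log2 fold change -3.01, SE 0.19, adjusted p = 4.11e-09, limma). Smaller falls were seen for Tlr1 (log2 fold change -2.36, SE 0.26, adjusted p = 1.97e-06, limma), Tlr13 (log2 fold change -1.65, SE 0.31, adjusted p = 0.00044, limma), Myd88 (log2 fold change -0.86, SE 0.08, adjusted p = 5.82e-07, limma) and Tlr6 (log2 fold change -0.69, SE 0.18, adjusted p = 0.00665, limma). Tlr4 went the other way, 1.9-fold higher in C2 WTFL cells (log2 fold change 0.92, SE 0.26, adjusted p = 0.0089, limma). Ly96 was 2.04-fold lower (log2 fold change -1.03, SE 0.32, adjusted p = 0.0184, limma), a call lost without the filter (adjusted p = 0.0554) and without C1 WTFL replicate 3 (adjusted p = 0.08) or C2 WTFL replicate 1 (adjusted p = 0.0576). These comparisons share the WTFL libraries with those of the deletion, so the values are given side by side and their overlap is not.

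Whether exogenous C/EBPβ restored these genes was asked in clone C1 with LAPS cells. Against dKO cells, none of the 10 genes rose in LAPS cells and 1, Tlr7, fell, against 1.43% of all tested genes called higher and 3.03% called lower. With so few genes called at all, these counts are near the background and cannot show whether the 10 genes were restored. None was higher at an unadjusted p of limma under 0.05, against 7.72% of all tested genes, or with edgeR or DESeq2. The median log2 fold change was -0.12, with that of all tested genes at 0. Tlr7 had 166, 166 and 161 normalized reads in the LAPS libraries, all below the lowest dKO value of 277, and was 2.04-fold lower (log2 fold change -1.03, SE 0.19, adjusted p = 0.00473, limma). Tlr8 had 17.3, 13.8 and 12.8 in LAPS cells, also below every dKO library, without a call (log2 fold change -0.83, SE 0.42, adjusted p = 0.318, limma). The other endosomal receptors overlapped dKO cells, with 119, 162 and 199 for Tlr13 (log2 fold change -0.46, SE 0.31, adjusted p = 0.481, limma) and 54.9, 65.5 and 88.5 for Tlr9 (log2 fold change 0.03, SE 0.42, adjusted p = 0.986, limma).

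Among the surface receptors of LAPS cells, Tlr2 had 325, 395 and 335 normalized reads (log2 fold change -0.14, SE 0.15, adjusted p = 0.667, limma), and the 95% interval of its difference from dKO cells, -0.46 to 0.17, did not reach the 1.49 that separates dKO from WTFL cells on the log2 scale. Tlr1 had 84.3, 109.7 and 109 (log2 fold change -0.03, SE 0.26, adjusted p = 0.978, limma), and Tlr4 had 582, 882 and 749 (log2 fold change 0.05, SE 0.26, adjusted p = 0.956, limma). Tlr6 had 173, 179.8 and 204, all below the lowest dKO library and without a call (log2 fold change -0.26, SE 0.18, adjusted p = 0.505, limma). Ly96 had 8.13, 18.4 and 18.2 (log2 fold change 0.29, SE 0.32, adjusted p = 0.705, limma, 95% interval -0.40 to 0.98). Myd88 had 722, 698 and 761 (log2 fold change -0.09, SE 0.08, adjusted p = 0.63, limma). The LAPS libraries of these genes thus lay in or below the dKO range, apart from 2 Ly96 libraries that lay above it, of at most 20 reads each, and 1 Tlr4 library. For Tlr1, Tlr4 and Tlr6 the dKO and WTFL libraries overlapped, so that range does not set them apart from WTFL cells. The 95% interval of Tlr4, -0.50 to 0.59, reached the size of its log2 fold change of -0.52 in dKO against WTFL cells. That of Tlr9, -0.87 to 0.94, reached the size of its -0.60.

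Against WTFL cells, 5 of the 10 genes were lower in LAPS cells and none was higher, against 18.3% of all tested genes called lower and 14.2% called higher. None was higher at an unadjusted p under 0.05, or with edgeR or DESeq2. The genes were Tlr8 (log2 fold change -4.11, SE 0.42, adjusted p = 1.47e-06, limma), Tlr13 (log2 fold change -1.89, SE 0.31, adjusted p = 0.000167, limma), Tlr7 (log2 fold change -1.68, SE 0.19, adjusted p = 4.1e-06, limma), Tlr2 (log2 fold change -1.64, SE 0.15, adjusted p = 4.01e-07, limma) and Myd88 (log2 fold change -0.44, SE 0.08, adjusted p = 0.000712, limma). Tlr1 was not called (log2 fold change -0.65, SE 0.26, adjusted p = 0.0657, limma), but was with edgeR (adjusted p = 0.0351), DESeq2 (adjusted p = 0.0302) and without C1 WTFL replicate 3 (adjusted p = 0.0172). Tlr4 was not called either (adjusted p = 0.182, limma), except without C1 WTFL replicate 3 (adjusted p = 0.00904). That library had the lowest value of its group for 9 of the 10 genes, and without it 7 of the 10 genes were called lower in dKO and 7 in LAPS cells. Libraries of other groups stood apart as well. C1 dKO replicate 1 and C2 WTFL replicate 1 were each lowest for 8 of the 10 genes, and C1 dKO replicate 3 was highest for 8. LAPS replicate 1 and C2 dKO replicate 2 were each lowest for 7. LAPS and dKO cells were set against the same WTFL libraries.

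Per length of exon, Myd88 and Tlr2 led in C1 WTFL cells, with 384 ± 38.2 and 367 ± 80.6 normalized reads per kb (mean ± SD, n = 3), and their libraries overlapped. Tlr4 followed with 193 ± 78.7, Tlr13 with 136 ± 17.6 and Tlr7 with 131 ± 24.8, each overlapping its neighbour. Tlr8 at 74.3 ± 3.62 was apart from both neighbours, and Tlr6, Tlr1, Tlr9 and Ly96 ran from 62.8 ± 9.93 down to 23.7 ± 6.14, each overlapping the next. Of the 9 pairs of neighbours in this order, 6 overlapped. In C1 dKO cells Myd88 stood alone at the top with 301 ± 8.62, Tlr2 (129 ± 14.4) and Tlr4 (128 ± 24.3) overlapped, and Tlr8 was last with 7.45 ± 0.76. LAPS cells kept Myd88 first with 282 ± 12.3 and Tlr8 last with 4.08 ± 0.66 normalized reads per kb. The order differed in clone C2, where Tlr4 was first in WTFL cells with 346 ± 40.1, above Myd88 with 211 ± 6.59, and Tlr9 was last with 0.19 ± 0.16. In C2 dKO cells Tlr4 (198 ± 48.9) and Myd88 (193 ± 16.7) overlapped, and Tlr9 (1.3 ± 0.98) and Tlr8 (0.29 ± 0.29) were last.

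**Figure D3:**
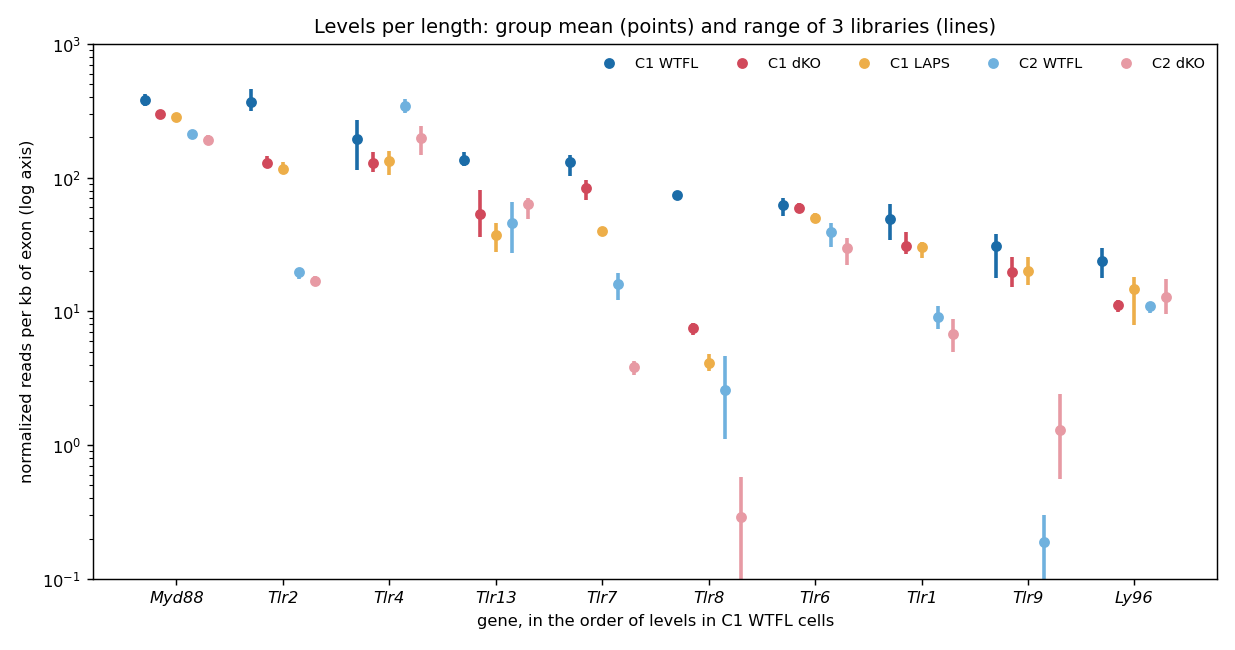
Normalized reads per kb of exon on a log axis for the 10 genes in the 5 groups, as the group mean (points) and the range of its 3 libraries (lines, which reach the lower edge where a library was at 0). Tlr2, Tlr7, Tlr8 and Tlr9 are far lower in both groups of clone C2 than in C1 WTFL cells, while Tlr4 and Myd88 are the highest genes of clone C2.

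The other Toll-like receptors of the mouse were hardly expressed. Tlr3, Tlr5, Tlr11 and Tlr12 were all outside the filter. The highest count of any of the 4 in a library was 12 reads, for Tlr5 in C1 dKO cells, which had 4, 6 and 12 reads against 1, 5 and 0 in C1 WTFL cells. Tlr3, which signals without MyD88, had 10, 4 and 1 reads in C1 WTFL libraries and at most 1 in any other. Tlr12 had no read, and Tlr11 had 1 read in all.

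Of 36 further genes of the pathway (accessory molecules, trafficking factors, other adaptors, kinases, inhibitors and interferon regulatory factors), 34 were tested. In clone C1, 17 of them fell in dKO cells and 2 (Irak1 and Traf3) rose, with a median log2 fold change of -0.33. Ly86, among the 17, passed the filter through the C1 WTFL libraries alone, so the filter fixed the direction of its C1 call. In clone C2, 12 fell and 5 (Cd180, Hsp90b1, Lgmn, Ticam2 and Tbk1) rose, with a median of -0.09. The backgrounds are those given above for each clone. In C2, Ly86 and Lgmn passed the filter through clone C1 alone, and without them 11 fell and 4 rose. Lgmn was called in C2 by neither edgeR (adjusted p = 0.208) nor DESeq2 (adjusted p = 0.117). Called lower in both clones were 9 genes, against 8.36% of all tested genes, and 2 were called in opposite directions, against 4.1%. Ly86 is counted among the 9, with the limit of the filter in both clones. The difference between the clones was called for 16 of the 34 genes, against 29.4% of all tested genes. Between the WTFL lines, 20 were lower and 2 (Irak3 and Tollip) higher in C2 than in C1, against 21.3% and 19.7% of all tested genes, with a median of -0.39. Ly86 and Lgmn, which passed the filter through clone C1 alone, are among the 20. The Tollip call was lost without the filter (0.0783), with only the groups compared (0.104) and without C1 WTFL replicate 3 (0.227) or C2 WTFL replicate 1 (0.116), 2 (0.118) or 3 (0.0605), all adjusted p. The count called lower between the WTFL lines was 20 with edgeR and with DESeq2, and 18 with quantile normalization.

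Cd14, which hands lipopolysaccharide to TLR4, was the accessory molecule with the most reads among those lower in both clones. It had 372, 763 and 199.7 normalized reads in C1 WTFL and 128, 149 and 115 in C1 dKO cells (log2 fold change -1.56, SE 0.40, adjusted p = 0.00609, limma), and 254, 581 and 384 in C2 WTFL and 120.3, 56.4 and 102 in C2 dKO cells (log2 fold change -2.11, SE 0.40, adjusted p = 0.000641, limma). All WTFL libraries of a clone lay above all of its dKO libraries. Ly86 encodes MD-1, the partner of CD180. In C1 it fell from 21, 51 and 27 reads to 0, 2 and 0 (ratio 51.8, 95% counting interval 14.0 to 434, adjusted p = 1.27e-05, limma). It passed the filter through these C1 WTFL libraries alone, which fixed the direction of that call. In C2 it fell from 8, 4 and 2 reads to 0 in every dKO library (adjusted p = 0.00428, limma), where the reads are too few for a fold.

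Unc93b1, the chaperone that carries the endosomal receptors out of the endoplasmic reticulum, was 1.67-fold lower in C1 dKO cells (2881 ± 334 against 4808 ± 579.8 normalized reads, mean ± SD, n = 3; adjusted p = 7.59e-05, limma) and 1.46-fold lower in C2 dKO cells (1469 ± 160.5 against 2142 ± 139; adjusted p = 0.00111, limma). Ctsb, a lysosomal protease of the cathepsin family, was 2.92-fold lower in C1 (adjusted p = 3.86e-11, limma) and 1.64-fold lower in C2 (adjusted p = 2.91e-07, limma). Its fall was larger in C1 by the interaction (log2 fold change 0.83, SE 0.09, adjusted p = 5.03e-06, limma). Pik3ap1, an adaptor that links Toll-like receptors to phosphoinositide 3-kinase, was 1.55-fold lower in C1 (adjusted p = 0.000857, limma) and 1.44-fold lower in C2 (adjusted p = 0.00356, limma). Irak2, a kinase of the MyD88 complex, had 432, 660.2 and 404 normalized reads in C1 WTFL and 190.3, 200.3 and 198 in C1 dKO cells. It was 2.47-fold lower in C1 (adjusted p = 1.73e-05, limma) and 2.97-fold lower in C2 (adjusted p = 3.17e-06, limma), and the interaction was not called (adjusted p = 0.458, limma).

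Of the 5 inhibitors of the pathway, 4 were lower in each clone, against 19.9% of all tested genes in C1 and 20.1% in C2. Tnfaip3, Tnip1 and Tollip were among them in both clones. The other gene was Irak3 in C1 and Sigirr in C2 (log2 fold change -0.86, adjusted p = 0.00135, limma), and Sigirr was not called in C1 (log2 fold change 0.29, adjusted p = 0.226, limma). Tnfaip3, the A20 deubiquitinase, had 994, 1016 and 675 normalized reads in C1 WTFL and 154, 99.7 and 119 in C1 dKO cells and was 7.14-fold lower (adjusted p = 2.23e-06, limma). In C2 its groups overlapped, and its call (adjusted p = 0.0358, limma) was lost with quantile normalization (0.0584), only the groups compared (0.0735) and the replicate number as a block (0.0529), and without C2 WTFL replicate 2 (0.194) or 3 (0.122) or C2 dKO replicate 1 (0.0748), 2 (0.102) or 3 (0.052), all adjusted p. Tnip1, a partner of A20, was 2.33-fold lower in C1 (adjusted p = 1.84e-08, limma) and 1.17-fold lower in C2 (adjusted p = 0.0408, limma), where the call was lost without the filter (0.0702), with quantile normalization (0.0584), with DESeq2 (0.0633) and without C2 WTFL replicate 2 (0.148) or 3 (0.116) or C2 dKO replicate 1 (0.0777), 2 (0.0702) or 3 (0.104), all adjusted p. Tollip was 1.29-fold lower in C1 (adjusted p = 0.00109, limma) and 1.37-fold lower in C2 (adjusted p = 0.000206, limma).

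The genes called in opposite directions were Hsp90b1, the chaperone gp96 that folds Toll-like receptors, and Tbk1, a kinase of the interferon branch. Tbk1 had 1179, 1277 and 1244 normalized reads in C1 WTFL and 895, 889 and 972 in C1 dKO cells (log2 fold change -0.42, SE 0.08, adjusted p = 0.00077, limma), and 861, 885 and 815 in C2 WTFL and 1377, 1344 and 1152 in C2 dKO cells (log2 fold change 0.59, SE 0.08, adjusted p = 4.03e-05, limma). It fell in one clone and rose in the other without overlap of groups, and the interaction was called (log2 fold change 1.02, SE 0.12, adjusted p = 1.21e-05, limma). Hsp90b1 was 1.24-fold lower in C1 (adjusted p = 0.00573, limma) and 1.18-fold higher in C2 (adjusted p = 0.0259, limma). The C2 call of Hsp90b1 was lost without the filter (0.0545), with quantile normalization (0.11), with only the groups compared (0.0684) and without C2 WTFL replicate 1 (0.0545) or 2 (0.0952) or C2 dKO replicate 1 (0.0728) or 3 (0.0792), all adjusted p.

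A pair of further genes, chosen after their values were seen, differed by clone. Irf7, a transcription factor downstream of TLR7 and TLR9, had 3991, 2627 and 432 normalized reads in C1 WTFL libraries, 30.6, 42.0 and 36.2 in C1 dKO libraries, 10.9, 11.5 and 15.6 in C2 WTFL and 14.7, 11.7 and 22.5 in C2 dKO libraries. It was thus high in C1 WTFL cells only, with replicate 3 far below the others. Irak3, an inhibitory member of the IRAK family, had 44.1, 64.9 and 36.7 in C1 WTFL and 3.4, 2.1 and 3.53 in C1 dKO cells, but 431, 501 and 483 in C2 WTFL and 768, 734 and 674 in C2 dKO cells. In C2 the Irak3 groups were apart without a call (log2 fold change 0.62, SE 0.28, adjusted p = 0.0968, limma), and it was called higher with edgeR (adjusted p = 0.00179), with DESeq2 (adjusted p = 7.53e-05), with only the groups compared (adjusted p = 0.000475) and with a pseudocount of 5 (adjusted p = 0.0225).

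**Figure D4:**
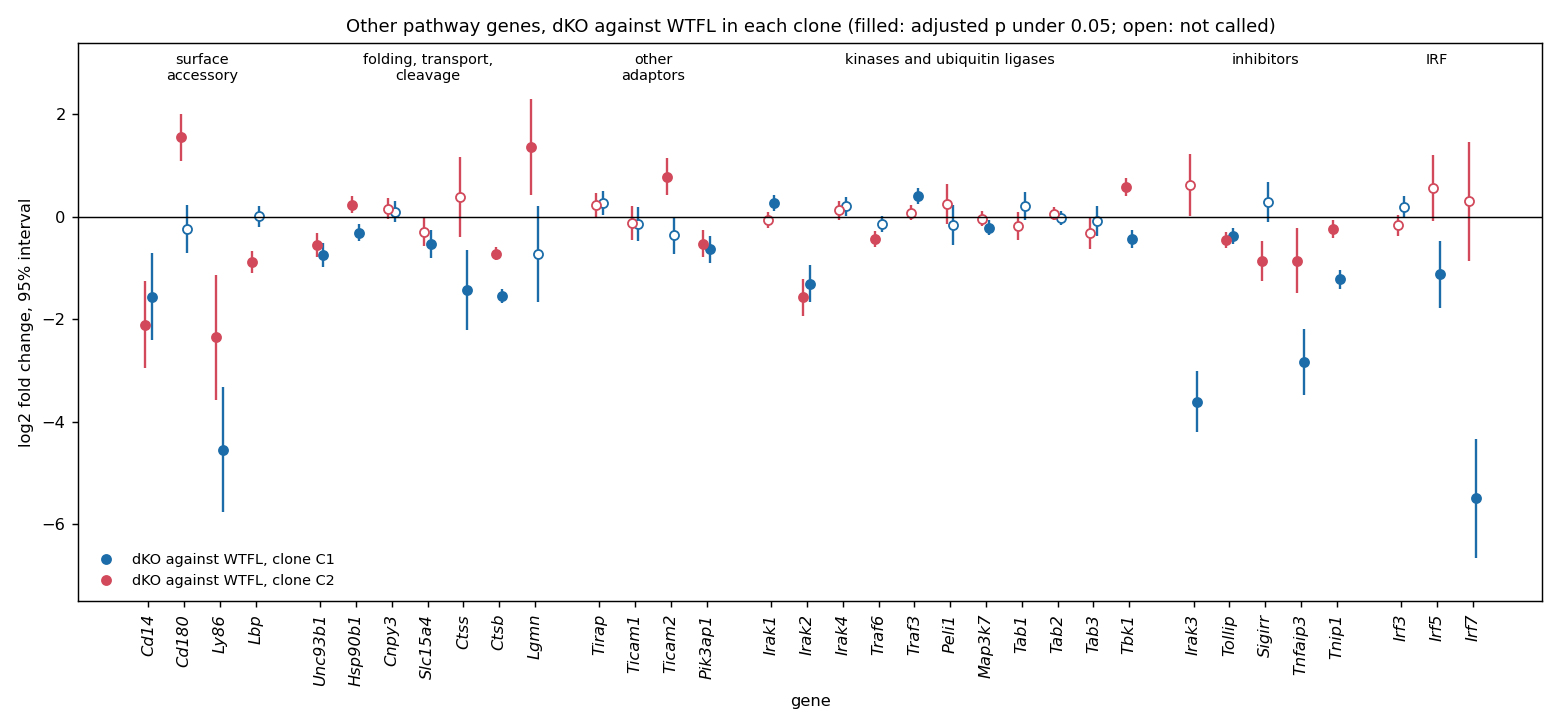
Log2 fold change of normalized reads + 1 in dKO against WTFL cells, with 95% intervals, for the 34 tested pathway genes by role, in clone C1 and clone C2, filled where the adjusted p of limma was under 0.05. Points of both clones are filled below 0 for 9 genes, among them Cd14, Unc93b1, Ctsb and Irak2, and the fitted value of Ly86 in clone C2 depends on the pseudocount because its dKO libraries were at 0.

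None of the 34 pathway genes was called between LAPS and dKO cells by limma, edgeR or DESeq2, where limma called 3.03% of all tested genes lower and 1.43% higher. At an unadjusted p under 0.05, limma put 4 of them lower and 1 higher in LAPS cells, against 10.2% and 7.72% of all tested genes, and the median log2 fold change was -0.03. Against WTFL cells, 15 were lower and 3 (Tirap, Irak4 and Traf3) higher in LAPS cells, against 18.3% and 14.2% of all tested genes, with a median of -0.22. Ly86 is among the 15, though it passed the filter through the C1 WTFL libraries alone. The count called lower was 14 with edgeR and with quantile normalization, and 15 with DESeq2. With only the groups compared, the higher calls of Tirap (adjusted p = 0.0886) and Irak4 (adjusted p = 0.0531) were lost. That of Tirap was also lost without C1 WTFL replicate 2 (0.0794) or 3 (0.0828) or LAPS replicate 3 (0.0701), and that of Irak4 without C1 WTFL replicate 2 (0.0647) or LAPS replicate 3 (0.101), all adjusted p.

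Markers of mature myeloid cells also differed between the groups, not all in 1 direction, and their part in the results was not tested. The 5 macrophage markers summed to 2225 to 3049 normalized reads in C1 WTFL, 1512 to 1863 in C1 dKO, 1576 to 1807 in LAPS, 203 to 427 in C2 WTFL and 989 to 1676 in C2 dKO libraries. Nearly all of these reads were Adgre1, which encodes F4/80, with Cd163 at 0 in every library. Adgre1 was 1.58-fold lower in C1 dKO cells (adjusted p = 0.032, limma), a call lost with quantile normalization (0.0645) and without C1 WTFL replicate 1 (0.0895) or 2 (0.107) or C1 dKO replicate 1 (0.0906) or 2 (0.0846), all adjusted p. It was 9.19-fold lower in C2 than in C1 WTFL cells (adjusted p = 1.65e-08, limma), whereas in clone C2 it was higher in dKO cells by 4.94-fold (limma, adjusted p = 1.14e-06). Mertk, a receptor for the uptake of dying cells, was lower in C1 dKO cells, with 78.9, 90.2 and 67.2 normalized reads in C1 WTFL against 0 to 3.53 in C1 dKO libraries (adjusted p = 1.37e-05, limma). It passed the filter through the C1 WTFL libraries alone, which fixed the direction of that call. In C2 it had 1, 3 and 6 reads in WTFL and 0 in every dKO library, too few to pass the filter within that clone. The 4 neutrophil granule markers (Ly6g, Ngp, Ltf and Camp) summed to 1457 to 2032 in C1 WTFL, 21736 to 24191 in C1 dKO, 5228 to 5563 in LAPS, 7032 to 14803 in C2 WTFL and 10201 to 16605 in C2 dKO libraries. Most of these reads were Ngp and Camp. All 4 were higher in C1 dKO cells, opposite to the 6 genes that fell there, and in C2 dKO cells Ly6g was 3.46-fold lower (adjusted p = 0.00123, limma). Ltf was 1.9-fold higher there (adjusted p = 0.0289, limma), a call lost with DESeq2 (0.0771), with only the groups compared (0.0721) and without C2 WTFL replicate 1 (0.0868) or C2 dKO replicate 1 (0.0769) or 2 (0.072), all adjusted p. Of the 4 markers of plasmacytoid dendritic cells, in which Tlr7 and Tlr9 are strongly expressed, Siglech, Ly6d and Klk1 were at 0 in every library, and Ccr9 carried the sum of 11.7 to 36.6 in C2 dKO libraries.

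Across the 15 libraries, the genes whose log2 levels followed each member most closely were described by Pearson's r, with no test, since the points share the 5 groups and 2 lines. For Tlr2 they were Cachd1 (r = 0.994), Ebi3 (0.993) and Sdk1 (0.993), and for Tlr1 they were Tnfrsf14 (0.985), Vwa5a (0.981) and Nlrp3 (0.979). Tlr7 was followed by Wfdc21 (0.989), AI839979 (0.985) and Gm36161 (0.976). For Tlr8 the closest were Sdr42e1 (0.98), Map3k8 (0.972) and Unc93b1 (0.972), the last of which is the chaperone of the endosomal receptors. Tlr9 came with Siglece (0.984), Trim44 (0.981) and Lgmn (0.979), an endosomal protease of the fixed pathway lists. Myd88 came with Hcls1 (0.974), Ifi207 (0.971) and Gm36161 (0.969), and Tlr4 with Rab6a (0.965), Rsbn1l (0.963) and Acsl4 (0.961). Likeness was weaker for Tlr6 (Rap1gap2, 0.948, Dpep2, 0.937, and Cd300c2, 0.937), Tlr13 (BC018473, 0.892, Acp5, 0.887, and Ptpn1, 0.876) and Ly96 (Slk, 0.859, Ccdc88a, 0.845, and Msn, 0.844).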

How the data were processed

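RNA of MLL-ENL-transformed cells was sequenced in 15 libraries, 3 for each of 5 groups. According to the deposited records, the authors made stranded mRNA libraries, aligned paired-end reads of 76 bases to mm10 with STAR 2.5.3a, counted reads per gene with HTSeq 0.10.0 and normalized with DESeq2 1.26.0. The unit of the deposited table is a signal: reads of a gene over the size factor of its library (0.747 to 1.13), from which whole reads were recovered for 100.0% of values within 0.1 read. The annotation and strand setting were not given in the sources used here. HTSeq's 5 rows that name no gene held 22.4% to 26.2% of reads and were left out, and 3 columns that matched no sample were not used.

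log2(normalized reads + 1) was modelled with limma 3.58.1 in R 4.3.3, with group means, a trended prior and all 15 libraries. Genes entered where 3 or more libraries held 10 or more normalized reads (12673 of 24520 detected genes). Calls needed a Benjamini-Hochberg adjusted p under 0.05. Scripts were tested on simulated data. Alternatives were pseudocounts of 0.1 and 5, no filter, quantile normalization, TMM factors, only the groups compared, a replicate block, edgeR 4.0.16 and DESeq2 1.42.0 on recovered reads, an absolute log2 fold change of 1 or more, and each library left out. A count of 3 reads in a library was the floor, and counting intervals are exact at 95%. Positions and exon lengths are from GENCODE vM21. Named were the 10 members and, of the pathway genes, those called in both clones or between LAPS and dKO cells, and for each member the 3 genes of highest correlation. Other pathway genes are named where a short count is spelled out, and Irf7 and Irak3 after their values were seen. Some marker genes of other cell types are not reported here. Members and lists were chosen with earlier results of these data known.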

Additional observations from a re-analysis of the deposited data

Results flagged for a closer look

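The effect of losing C/EBPα and C/EBPβ differed between the clones, by the interaction term of limma, for 3 of the 8 genes that passed the filter within clone C2 (Tlr2, Tlr13 and Tlr7), against 29.4% of all tested genes, and also for Tlr9. The count is near that share, so the values are those of single genes. For Tlr2 the log2 effect in clone C2 minus that in clone C1 was 1.281 (adjusted p = 0.000261), with an effect of -1.49 in C1 and -0.21 in C2. For Tlr13 it was 1.969 (adjusted p = 0.00289), with -1.44 in C1 and 0.53 in C2. Tlr7 had a difference of -1.335 (adjusted p = 0.00131), with -0.65 in C1 and -1.98 in C2. Tlr9 had one of 2.231 (adjusted p = 0.0107), with -0.60 in C1 and 1.63 in C2, the latter fitted to 13 against 2 reads. Tlr9 passed the filter through clone C1 alone. The calls of Tlr2, Tlr13 and Tlr7 held in all 9 alternatives and without each library in turn. The WTFL levels from which the 2 clones started also differed for all 4 genes, and what part that had was not tested.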

How the results depend on the processing

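No called value of the 10 genes changed sign under any alternative. Over 538 values of single genes under 9 alternatives, 522 kept direction and call, 9 gained a call, 5 lost one and 2 that were not called changed sign (the Tlr8 interaction, to -0.33 with a pseudocount of 0.1, and Tlr1 in LAPS against dKO cells, to 0.03 with quantile normalization). Of the 420 values with 1 library left out, 388 kept both, 9 gained a call, 11 lost one and 12 that were not called changed sign. In clone C2, the count of genes called higher was 0 rather than 1 with a pseudocount of 5, with only the groups compared (where Tlr8 and Tlr9 failed the filter and were not fitted, so that the count called lower was 2 rather than 3 and Tlr8 was no longer called in both clones) and with edgeR. The count with a positive interaction was 5 rather than 3 with a pseudocount of 5, which added Tlr8 and Ly96. Where a call also needed a log2 change of 1 or more in size, the count called higher in C2 against C1 WTFL cells was 0 rather than 1, since Tlr4 stood at 0.92. By the same rule the count called lower was 4 rather than 6 in clone C1 (without Tlr7 and Myd88), 2 rather than 3 in C2 (without Tlr4), 4 rather than 5 in LAPS against WTFL cells and 7 rather than 9 between the WTFL lines, and Tlr7 was then not called in both clones. Replicate numbers did not pair the samples: of 30 pairs with the same number, correlations of deviations ran from -0.319 to 0.297, 5 were over 0.1, and 11 times the own number was best. With the replicate number as a block, 6 genes were lower in clone C1 and 3 lower and 1 higher in clone C2, as without it. Depth limits Tlr8 and Tlr9 in clone C2 and Ly96 throughout. Quantile normalization and TMM factors moved the median of all genes by less than 0.1 in every comparison. All results rest on 1 line per group, and LAPS on clone C1.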
